A study of Mus musculus with 148 samples.

Results

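The 8 genes Trem2, Tyrobp, Gpnmb, Cd63, Spp1, Fabp5, Lpl and Cd9 are often listed together as a lipid-associated macrophage programme, and they were taken by name as 8 of the 52634 gene rows of single-cell count tables from a mouse model of breast cancer lung metastasis. Their unique molecular identifiers (UMIs, 1 for each captured mRNA molecule) were summed over the cells of 1 mouse, 1 tissue and 1 annotation label wherever at least 10 such cells were present. This gave 519 sums over 29 of the 30 labels, and a level is the UMIs of a gene in counts per 1000000 UMIs of the sum (CPM). Levels were first described across labels, and then compared between tissues with the mouse as the replicate. The labels were made by the authors by grouping these same cells on their expression, so differences between labels are given as a description and were not tested.

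All animals were female PA-GFP C57BL/6 mice, which carry a green fluorescent protein that becomes visible only after illumination under the microscope. EO771-tdTomato breast cancer cells, a mouse mammary carcinoma line with a red label, were placed in a mammary gland of mice aged 8 weeks, the tumor was removed 3 weeks later and the lungs were followed by weekly CT. Control lungs (labelled Normal, 3 mice) came from control PA-GFP mice and Pre-MET lungs (3 mice) from animals whose primary tumor was still in place, 4 primary tumors were also sampled, and relapse-free lungs (6 mice) came from animals in which no metastasis appeared. From mice with metastases, distal normal tissue (14 mice) and lung sections with lesions (MET, 13 mice) were sorted as CD31-CD45+ cells. Cells of the metastasis core (MET Core, 13 mice) and of the invasive margin (7 mice) were sorted by their photoactivated GFP, with CD45 added for some core plates, and the margin of mouse 17 was the only margin whose photoactivation target was labelled NON-MET. Each group is therefore of one tumor line in one strain, and the compared tissues also differ in how their cells were sorted.

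TREM2 is a receptor of the immunoglobulin superfamily on macrophages, microglia and osteoclasts that binds lipids and lipoproteins. It has no signaling tail of its own and works through TYROBP (DAP12), an adaptor whose activation motif recruits the kinase SYK and which also serves receptors of NK cells, monocytes and neutrophils. In macrophages that take up much lipid or debris, Trem2 is commonly found together with Gpnmb, a membrane glycoprotein of lysosomes, with the tetraspanins Cd63 and Cd9, with Spp1, which encodes the secreted phosphoprotein osteopontin, with Fabp5, a fatty acid carrier of the cytoplasm, and with Lpl, the lipase that releases fatty acids from lipoproteins. Alveolar macrophages, the resident macrophages of the airspace, also handle surfactant lipid, so that part of such a programme is normal in the lung.

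In mm10 coordinates, Trem2 lies on chromosome 17 from 48346401 to 48354147 and Gpnmb on chromosome 6 from 49036546 to 49070929. The promoters of these 2 genes are shown because their levels, described below, were both highest in the macrophage label Mac_Gpnmb by more than the spread between samples. The windows are chr17:48346151-48346450 and chr6:49036268-49036567 (both on the plus strand, RefSeq, GRCm38.p6), read 5′ to 3′ from 250 bases before the start that RefSeq annotates, which for Gpnmb lies upstream of the gene start given above from GENCODE, with matches to an AP-1 site (TGANTCA, both strands) and, in Trem2, to a PU.1 core (GAGGAAG, both strands) in capitals.
Trem2: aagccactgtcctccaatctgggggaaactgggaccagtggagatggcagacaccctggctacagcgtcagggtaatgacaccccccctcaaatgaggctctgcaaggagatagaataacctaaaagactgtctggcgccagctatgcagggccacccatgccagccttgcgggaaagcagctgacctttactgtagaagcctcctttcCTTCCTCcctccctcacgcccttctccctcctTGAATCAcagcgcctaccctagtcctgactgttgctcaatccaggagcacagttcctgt
Gpnmb: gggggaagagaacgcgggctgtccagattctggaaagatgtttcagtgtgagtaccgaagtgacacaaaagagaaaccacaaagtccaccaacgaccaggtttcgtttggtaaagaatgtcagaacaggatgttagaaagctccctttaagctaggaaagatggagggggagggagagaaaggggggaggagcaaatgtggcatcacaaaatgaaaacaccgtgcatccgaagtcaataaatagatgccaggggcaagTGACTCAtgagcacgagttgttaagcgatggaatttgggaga
The AP-1 letters lay 9 to 3 bases before the RefSeq start of Trem2 and 8 to 14 bases after that of Gpnmb, and 7.81% of 32851 windows of 300 bases held them. The PU.1 letters were in 13.6% of windows, among them those of Trem2, Cd63 and Spp1. A CACGTG motif (7.15% of windows) and an M-box (TCATGTG, 3.77% of windows) were found in none of the members' windows. The promoter table matched 5 of the 8 genes, and Tyrobp, Fabp5 and Lpl had no entry. Letters in a window are a description and not a site of binding.

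Of 24020 annotated cells on 148 plates, 23425 were immune, from 63 samples of 27 mice. A sample gave between 48306 UMIs (a metastasis) and 2745794 UMIs (a relapse-free lung) from its immune cells. Macrophages were 1791 cells under 4 labels, Mac_Gpnmb, Mac_Isg20, Mac_Cd81 and Mac_Cd9. Markers were checked for the macrophage labels. The 6 macrophage markers (Adgre1, C1qa, C1qb, Csf1r, Mrc1 and Cd68) summed to a mean of 5066 CPM in Mac_Gpnmb, and the 6 alveolar macrophage markers (Ear1, Ear2, Siglecf, Car4, Marco and Chil3) to 14655 CPM in Mac_Cd9 against 438 CPM or less in the other 3 labels. Chil3 made up most of that alveolar sum, at 11599 CPM in Mac_Cd9, 433 CPM in Mac_Gpnmb and 380 CPM in Mac_Isg20. Ear1 and Siglecf were at 0 in Mac_Gpnmb and Mac_Isg20. In Mac_Cd9, which is otherwise alveolar, the macrophage markers summed to 2162 CPM, with C1qa at 0 and C1qb in 2 of 11 sums (mean 1.96 CPM). The 4 monocyte markers (Ly6c2, Ccr2, Vcan and Plac8) summed to a mean of 2264 CPM in Mac_Isg20, against 1188 CPM in Mac_Cd81, 498 CPM in Mac_Gpnmb and 104 CPM in Mac_Cd9, beside 4081 CPM of macrophage markers in Mac_Isg20. The 592 wells that held no cell gave 8490 UMIs in all, with none of Trem2 or Gpnmb, 27 of Tyrobp, 7 of Cd9, 5 of Spp1, 3 of Cd63, 2 of Fabp5 and 1 of Lpl. None for Trem2 or Gpnmb allows a level of up to 353 CPM in those wells, a limit that covers counting error only.

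Mac_Gpnmb had the highest mean level of 4 of the 8 genes, namely Trem2, Gpnmb, Cd63 and Fabp5. The other 4 were led elsewhere, with Lpl and Cd9 highest in the alveolar label Mac_Cd9, Spp1 in tumor cells and Tyrobp in neutrophils. The label with the highest level of each gene was the same under all 5 other ways of forming the sums.

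**Figure D1:**
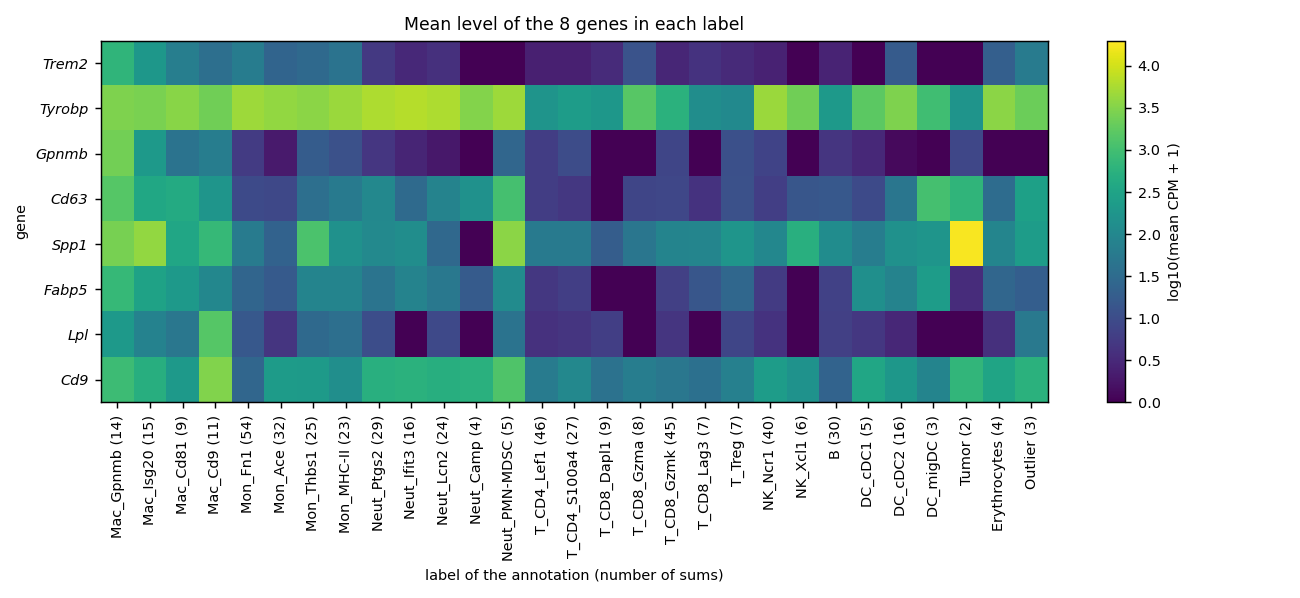
Mean level of the 8 genes (log10 of CPM + 1, color scale) in the 29 labels with sums of at least 10 cells, with the number of sums in parentheses. Trem2 and Gpnmb are brightest (highest) in Mac_Gpnmb (means 641 and 2394 CPM), Lpl and Cd9 in Mac_Cd9 (1456 and 3019 CPM) and Spp1 in Tumor (18361 CPM), while Tyrobp is high in nearly all myeloid and NK labels.

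Trem2, the receptor, averaged 641 ± 222 CPM (SD, n = 14) in Mac_Gpnmb, 185 ± 118 CPM (SD, n = 15) in Mac_Isg20 and 68.8 ± 67.7 CPM (SD, n = 9) in Mac_Cd81. The gap below Mac_Gpnmb exceeded the spread between samples, whereas every later neighbour in the order lay within it. Mon_Fn1, a monocyte label, followed at 62.7 ± 52.0 CPM (SD, n = 54), ahead of Mac_Cd9 at 36.8 ± 32.5 CPM (SD, n = 11). Of the 1950 Trem2 UMIs in the data, macrophages carried 60.1% and monocytes 35.7%, which outnumbered macrophages.

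Tyrobp, the adaptor, did not follow its receptor. Its level was highest in the neutrophil label Neut_Ifit3, at 6544 ± 1891 CPM (SD, n = 16), and reached 4671 ± 1219 CPM (SD, n = 54) in Mon_Fn1 and 4420 ± 1122 CPM (SD, n = 40) in the NK label NK_Ncr1. In Mac_Gpnmb it was 2997 ± 807 CPM (SD, n = 14), the 13th highest of the 29 means. Macrophages held 11.2% of its 136463 UMIs, against 47.3% in monocytes, 21.1% in neutrophils and 11.6% in NK cells.

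Gpnmb was high in a single label. It averaged 2394 ± 1346 CPM (SD, n = 14) in Mac_Gpnmb and 204 ± 258 CPM (SD, n = 15) in Mac_Isg20, and no other label passed 66.3 CPM. Macrophages carried 94.2% of its 3675 UMIs. The label bears the name of this gene, so its place at the top is part of how the label was made.

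The tetraspanins were shared more widely. Cd63 averaged 1486 ± 575 CPM (SD, n = 14) in Mac_Gpnmb, but migratory dendritic cells, at 1070 ± 390 CPM (SD, n = 3), and PMN-MDSCs, at 1068 ± 519 CPM (SD, n = 5), lay within that spread. Cd9 reached 3019 ± 675 CPM (SD, n = 11) in Mac_Cd9, a lead larger than the spread, ahead of PMN-MDSCs at 1299 ± 965 CPM (SD, n = 5) and Mac_Gpnmb at 886 ± 407 CPM (SD, n = 14). Mac_Cd9 bears the name of this gene, so the top place of Cd9 there is part of how the label was made. Neutrophils carried 22.5% of all Cd9 UMIs and macrophages 42.4%.

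Spp1, the secreted member, was highest in tumor cells, with 22292 CPM in the tumor cells of mouse 10 and 14430 CPM in those of mouse 38, the only 2 sums of that label. Among macrophages it was led by Mac_Isg20, at 4034 ± 2057 CPM (SD, n = 15), with Mac_Gpnmb at 2622 ± 1898 CPM (SD, n = 14). PMN-MDSCs at 3527 ± 3462 CPM (SD, n = 5) and Mon_Thbs1, a monocyte label, at 1191 ± 1104 CPM (SD, n = 25) were of the same order, and none of these neighbours differed beyond its spread.

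The lipid handling genes separated from each other. Fabp5, the fatty acid carrier, was highest in Mac_Gpnmb at 762 ± 274 CPM (SD, n = 14) and lower in Mac_Isg20 at 304 ± 222 CPM (SD, n = 15), a gap larger than the spread. Lpl, the lipase, stood at 1456 ± 244 CPM (SD, n = 11) in Mac_Cd9 and at 207 ± 253 CPM (SD, n = 14) in Mac_Gpnmb, and its lead in the alveolar label also exceeded the spread.

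**Figure D2:**
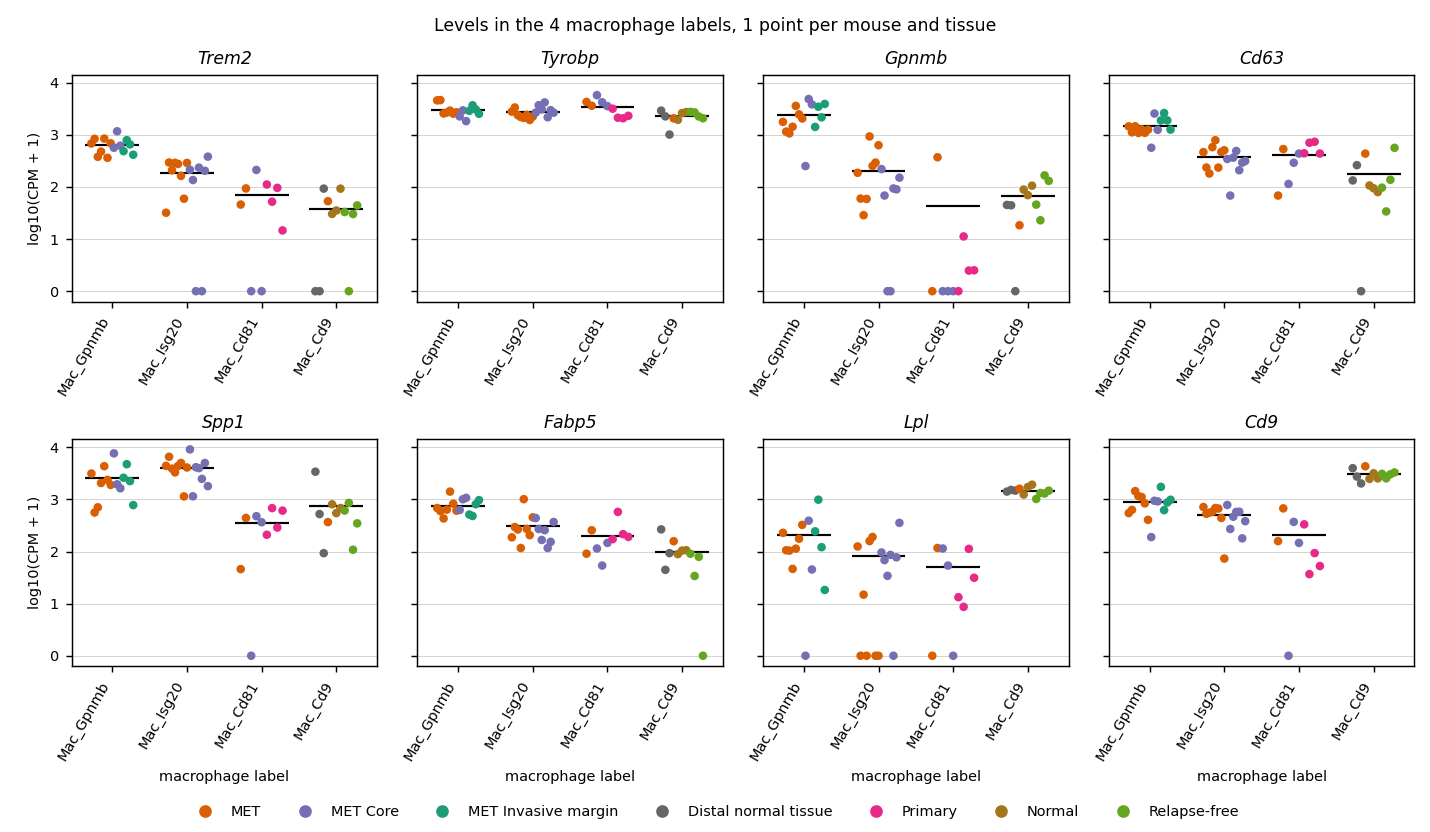
Levels of the 8 genes in the 4 macrophage labels (log10 of CPM + 1), with 1 point per mouse and tissue, colored by tissue, and a bar at the mean. Trem2 in Mac_Gpnmb lies between 362 and 1170 CPM in all 14 sums, Lpl in Mac_Cd9 between 1020 and 1916 CPM in all 11, and Tyrobp hardly separates the labels.

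Within Mac_Gpnmb the members differed in how steady they were between samples, which came from 7 metastases, 3 cores and 4 margins with 15936 to 186256 UMIs each. Trem2 ranged from 362 to 848 CPM in the metastases (median 682 CPM), was 565, 1170 and 619 CPM in the cores of mice 30, 31 and 36, and 486, 790, 656 and 415 CPM in the margins of mice 17, 32, 33 and 36. The 3 tissues overlapped throughout. Gpnmb ranged from 1066 to 3603 CPM in the metastases (median 1774 CPM), was 251, 4874 and 3846 CPM in the same cores, and 1420, 3472, 2167 and 3922 CPM in the margins. The core of mouse 30, a sum of 10 cells, held the lowest Gpnmb, the lowest Cd63 (565 CPM), the lowest Cd9 (188 CPM) and no Lpl UMI, which allows up to 188 CPM, while its Spp1 was the highest of all, at 7656 CPM. By the same sums, Spp1 spanned 559 to 7656 CPM, Fabp5 430 to 1412 CPM and Tyrobp 1835 to 4649 CPM, so that Fabp5, Trem2 and Tyrobp varied least and Lpl most.

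Labels were also compared within the same mouse and tissue. In 9 samples with both Mac_Gpnmb and Mac_Isg20, the level in Mac_Gpnmb was the higher one in 9 of 9 for Trem2 (mean 607 against 212 CPM), Gpnmb (1962 against 228 CPM), Cd63 (1174 against 395 CPM) and Fabp5 (765 against 319 CPM). Spp1 ran the other way, with Mac_Gpnmb higher in 2 of the 9 (2709 against 3948 CPM). In the 3 samples with both Mac_Gpnmb and Mac_Cd81, Trem2, Gpnmb, Cd63, Spp1, Fabp5 and Cd9 were higher in Mac_Gpnmb in 3 of 3, and Tyrobp and Lpl in 1. In the 5 samples with both Mac_Isg20 and Mac_Cd81, Trem2 was higher in Mac_Isg20 in 4 (202 against 69.8 CPM) and Spp1, Fabp5 and Cd9 in 5. Cd63 was higher in Mac_Isg20 in 4 of these 5 (434 against 288 CPM), whereas its means over all samples ran the other way (369 and 418 CPM). In 15 samples with both Mac_Isg20 and the monocyte label Mon_Thbs1, Spp1 was higher in Mac_Isg20 in 14 and Trem2 in 12.

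In single cells Mac_Gpnmb again led for Trem2, and at equal depth the next labels followed in the order of their levels. A Trem2 UMI was counted in 212 of 449 Mac_Gpnmb cells (47.2%, exact binomial 95% interval 42.5 to 52.0%, counting error only), at a median of 1726 UMIs per cell, and 21.98% would be expected if each cell were thinned to 500 UMIs. At 500 UMIs it was 6.31% in Mac_Isg20, 5.82% in Mac_Cd81 and 2.43% in Mon_Fn1. As counted, the shares were 14.6%, 16.6% and 5.76%, with Mac_Cd81 cells the deeper ones (median 2327 UMIs against 1333.5 in Mac_Isg20). In T cells, which should lack the receptor, it was 0.292% (0.0899% at 500 UMIs) at a median of 996.5 UMIs, the background against which the others can be read. For Gpnmb the shares were 65.7% in Mac_Gpnmb, 12.6% in Mac_Isg20 and 0.482% in T cells.

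Trem2 and Gpnmb were also counted in the same cells. Both had a UMI in 165 Mac_Gpnmb cells (36.7%), in 17 Mac_Isg20 cells (3.44%), in 2 of 409 Mac_Cd81 cells and in 2 of 6846 T cells. At least 4 of the 7 members other than Tyrobp were counted in 50.8% of Mac_Gpnmb cells and in 12.3% of Mac_Cd9, 9.92% of Mac_Isg20 and 7.82% of Mac_Cd81 cells. No cell of 3053 in Mon_Fn1 and none of 6846 T cells did so. These shares were not thinned and follow depth as well as level.

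The tissues held different mixes of the 4 macrophage labels. In samples with at least 10 macrophages, Mac_Gpnmb made up 79.4 ± 14.4% of them in the margin (SD, n = 4), 33.5 ± 8.57% in metastases (SD, n = 9), 23.5 ± 18.8% in cores (SD, n = 10) and 16.9 ± 18.1% in distal normal tissue (SD, n = 6). It was 3.37 ± 2.46% in primary tumors (SD, n = 4), where Mac_Cd81 made up 80.9%, and 0% in control lungs (n = 3), where the alveolar Mac_Cd9 made up 92.6%. Mac_Cd9 was also the main label of relapse-free lungs (83.5%) and of distal normal tissue (63.6%), but 7.65% in metastases and 0.484% in cores.

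**Figure D3:**
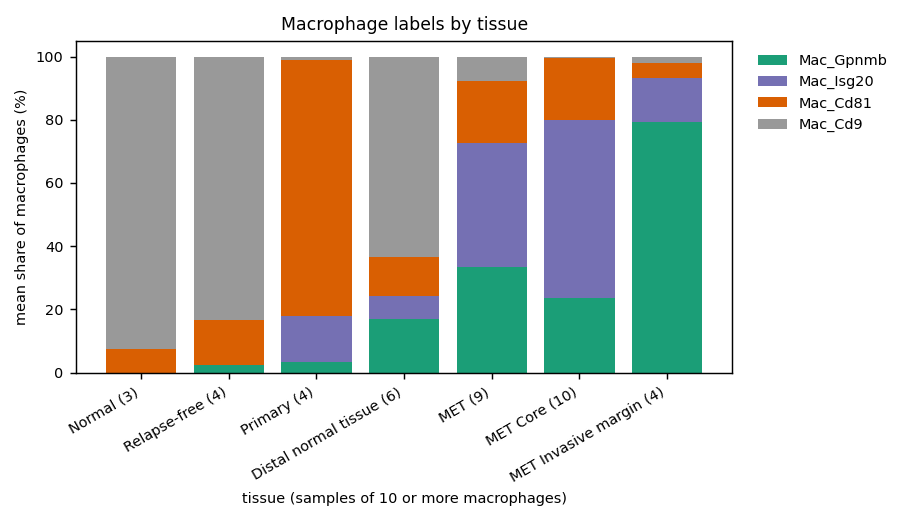
Mean share of the 4 macrophage labels among macrophages (% of macrophages, stacked bars) in each tissue, over samples with at least 10 macrophages. Mac_Gpnmb is the main label in the invasive margin only (79.4%), and Mac_Cd9 in control, relapse-free and distal normal lung (92.6%, 83.5% and 63.6%).

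Between distal normal tissue (6 mice) and metastases (9 mice), the macrophage sums changed in opposite directions for 2 members. Gpnmb was higher in metastases and Lpl was lower, and the other 6 members did not pass the test. All 8 passed the filter on low counts, and 2 of the 8 were called by edgeR's quasi-likelihood test at a Benjamini-Hochberg adjusted p under 0.05, beside 9.54% of all 1289 genes tested. The median log2 fold change was 0.33 over the members and 0.15 over all genes tested.

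Lpl was measured at 340 CPM at the lowest, 1209 CPM at the median and 1361 CPM at the highest in distal normal tissue, and at 20.8, 154 and 358 CPM in metastases. The lowest distal sample, mouse 23, lay just under the highest metastasis, mouse 31, and all other samples were apart. The means were 989 ± 445 CPM (SD, n = 6) and 160 ± 115 CPM (SD, n = 9), and Lpl fell by 2.35 on the log2 scale (SE 0.46, edgeR adjusted p = 0.00243). It was lower in metastasis in 5 of the 5 mice with both tissues, and it was called under every alternative run. Alveolar macrophage markers moved with it, with all 6 detected and a sum of 3963 to 14345 CPM (median 13206 CPM) in distal normal tissue and 83.2 to 3555 CPM (median 856 CPM) in metastases, and their part in the result was not tested.

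Gpnmb, the lysosomal glycoprotein, ran from 35.3 CPM over a median of 111 CPM to 1049 CPM in distal normal tissue, and from 398 over 875 to 2349 CPM in metastases. The ranges overlapped through the distal samples of mice 17 (1049 CPM) and 23 (453 CPM). The means were 299 ± 399 CPM (SD, n = 6) and 1096 ± 706 CPM (SD, n = 9), a log2 fold change of 1.91 (SE 0.60, edgeR adjusted p = 0.0408). Without mouse 17, a sum of 10 cells, the distal mean was 149 CPM. With the mouse as a block, over the 5 mice with both tissues, the log2 fold change was 2.41 (adjusted p = 0.00555) and Gpnmb was higher in metastasis in all 5. The call was lost on leaving out any of 10 of the 15 samples, where the adjusted p was between 0.0532 and 0.0999, and Gpnmb did not pass the filter for low counts once Mac_Gpnmb cells were left out of the sums. Within metastases it was 398 to 694 CPM in mice 23, 26 and 28. It was 875 to 2349 CPM in mice 31, 32, 36 and 37, whose sums were assigned to another sequencing batch. Each sum was assigned to the batch that gave the largest number of its cells. With batch as a term, over the batches that held both tissues, the log2 fold change was 2.09 (edgeR adjusted p = 0.0212). The 4 monocyte markers also moved, from a sum of 74.7 to 736 CPM (median 313 CPM) in distal normal tissue to 497 to 2426 CPM (median 1237 CPM) in metastases, and their part in the result was not tested.

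Cd9 and Spp1 passed the edgeR test with the mouse as a block, over the 5 mice with both tissues, and not over all mice without the block. Cd9 was 2010 ± 879 CPM (SD, n = 6) in distal normal tissue and 842 ± 443 CPM (SD, n = 9) in metastases, with a log2 fold change of -1.06 (edgeR adjusted p = 0.0650), and with the mouse as a block it fell by 1.33 on the log2 scale (adjusted p = 0.00619), lower in 5 of 5 mice. DESeq2 without the block also called it (adjusted p = 0.0447). Mac_Cd9, the label of highest Cd9, made up 63.6% of macrophages in distal normal tissue and 7.65% in metastases, and its part in the result was not tested. Spp1 was 1952 ± 3055 CPM and 2516 ± 800 CPM, with a log2 fold change of 0.40 (adjusted p = 0.770), and with the block it rose by 1.99 (adjusted p = 0.0102), higher in 4 of 5 mice. Its distal samples stretched from 78.4 to 7852 CPM, and the highest, mouse 17, was a sum of 10 cells of a mouse with no lung section of metastasis. Without it, the log2 fold change of Spp1 was 1.81 (adjusted p = 0.0245).

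Trem2 itself was not called, and its difference between the tissues was poorly fixed by these samples. Distal samples ran from 74.7 over a median of 225 to 992 CPM, and metastases from 251 over 293 to 513 CPM. The metastases all lay inside the range of the distal samples. The means were 358 ± 335 CPM (SD, n = 6) and 330 ± 85.0 CPM (SD, n = 9), and the log2 fold change of -0.028 (SE 0.43, edgeR adjusted p = 0.982) was of uncertain sign, with 0.61 under the block (adjusted p = 0.486), 0.82 without distal mouse 17 and 1.94 in cells of at least 1000 UMIs (adjusted p = 0.0980). The interval of 2 SE around the value ran from -0.88 to 0.83. Tyrobp (2700 and 2839 CPM), Cd63 (522 and 696 CPM) and Fabp5 (287 and 474 CPM) did not pass the test either.

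**Figure D4:**
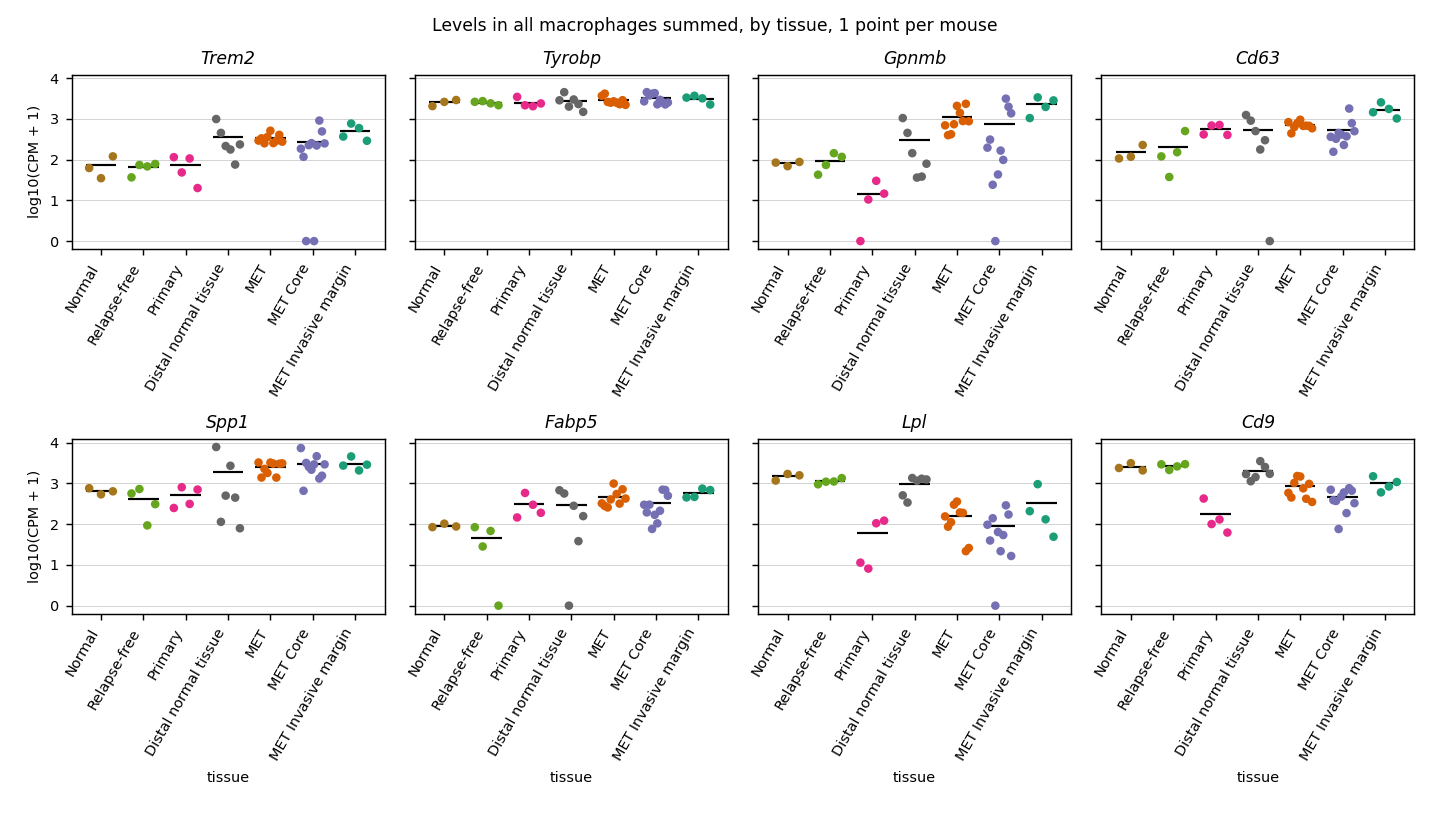
Levels of the 8 genes summed over all macrophages (log10 of CPM + 1) in each tissue, with 1 point per mouse and a bar at the mean. Lpl is at a mean of 989 CPM in distal normal tissue and 160 CPM in metastases, and Gpnmb at 13.1 CPM in primary tumors and 733 CPM in cores, with 1 core at 0.

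Of the wider lipid-associated list of 30 genes, none of them a member, 26 passed the filter in this comparison, 7 were called higher in metastasis and 0 lower, beside 6.90% and 2.64% of all genes tested. The list was drawn up with earlier results of these data known, so these counts are a description. The study itself reports Arg1 as higher in macrophages of metastases. The 3 with the smallest p were Arg1, an arginase, at 13.1 ± 32.0 and 288 ± 253 CPM (log2 fold change 5.17, adjusted p = 0.00612), Mmp12, the macrophage elastase, at 49.6 ± 55.6 and 298 ± 158 CPM (2.54, adjusted p = 0.00751), and Capg, an actin capping protein, at 446 ± 243 and 1052 ± 196 CPM (1.35, adjusted p = 0.0146). The others were Npc2 and Psap, which act in lysosomal lipid handling, Lgals3 and Apoe. The list's median log2 fold change was 0.73, and it was 0.15 over all genes tested. Of 8 genes listed as TREM2 signaling partners (Hcst, Syk, Plcg2, Inpp5d, Lyn, Trem1, Trem3 and Treml4), 1 passed the filter and 0 were called by edgeR or DESeq2, with 0 at an unadjusted p under 0.05. Trem1, Trem3 and Treml4 are other receptors of the TREM2 family rather than partners, and are counted in this list throughout.

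In the invasive margin (4 mice) against the core (10 mice), no member was called, and neither was any other gene (0% of 1743 genes tested at an edgeR adjusted p under 0.05, 178 at an unadjusted p under 0.05). All 8 members passed the filter, and their median log2 fold change was 1.05 against 0.00 over all genes. Margins held a larger share of Mac_Gpnmb cells, and the part of this in the values was not tested, since too few cells remained without that label for a fit.

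Gpnmb was 1048, 3374, 1967 and 2847 CPM in the margins of mice 17, 32, 33 and 36, and ran from 0 over a median of 181 to 3143 CPM in the cores. Each margin lay above 7 of the 10 cores, and the cores of mice 31, 36 and 37 lay among the margins. These cores shared sequencing batches with the margins of mice 32, 33 and 36. The core of mouse 17, among the 7 below every margin, shared a batch with the margin of mouse 17. The cores of mice 23, 24, 25, 26, 28 and 30 came from batches that held no margin of this comparison. Batch and region thus partly went together. The means were 2309 ± 1021 CPM (SD, n = 4) and 733 ± 1080 CPM (SD, n = 10, or 466 CPM without the core of mouse 31), with an edgeR adjusted p of 0.505.

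Cd63, the other lysosomal membrane gene, was 1454, 2551, 1756 and 1025 CPM in the same margins and 155 to 1799 CPM in the cores (median 392 CPM), and only the core of mouse 31 reached the margins. The cores of mice 31, 36 and 37, which shared batches with margins, were again the highest (1799, 786 and 498 CPM). The core of mouse 17, which shared a batch with its own margin, held 362 CPM. The means were 1697 ± 644 and 539 ± 474 CPM, with a log2 fold change of 1.70 (SE 0.46, edgeR adjusted p = 0.141, DESeq2 adjusted p = 0.0310). In the 2 mice with both tissues, Cd63, Gpnmb and Cd9 were higher in the margin in 2 of 2. Trem2 was 368, 768, 595 and 289 CPM in the margins and 0 to 910 CPM in the cores (median 224 CPM), with means of 505 ± 218 and 265 ± 267 CPM that overlapped, and its log2 fold change of 0.93 (adjusted p = 0.653) became -0.12 over the mice with both tissues and -0.030 with sequencing batch as a term. Cd9 (1008 and 455 CPM), Lpl (337 CPM, or 129 CPM without the margin of mouse 32, and 88.8 CPM), Fabp5 (589 and 325 CPM), Spp1 (3085 and 2941 CPM) and Tyrobp (3123 and 3204 CPM) were not called. Of the wider list, 27 genes passed the filter and 0 were called by edgeR, with 9 higher in the margin at an unadjusted p under 0.05 and 5 called by DESeq2, and the list's median log2 fold change was 0.92. Of the signaling partners, 2 passed and 0 were called by edgeR or DESeq2, with 0 at an unadjusted p under 0.05.

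The same 10 cores were also set against primary tumors (4 mice), to ask how these genes differ between the primary and the metastatic site, and the 2 comparisons therefore share those samples. Gpnmb and Spp1 were higher in cores, and the other 6 members, all past the filter, were not called, so that 2 of 8 were called beside 4.53% of 2162 genes tested (2.87% higher and 1.67% lower). The median log2 fold change was 1.03 over the members and -0.01 over all genes.

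Gpnmb was near 0 in the primary tumors, at 0, 9.50, 29.3 and 13.6 CPM in mice 8, 9, 10 and 38, where 0 UMIs in mouse 8 allow up to 31.1 CPM. In the cores it ran from 0 (mouse 25, up to 226 CPM allowed) over a median of 181 to 3143 CPM, and 8 of the 10 lay above 29.3 CPM. The means were 13.1 ± 12.2 CPM (SD, n = 4) and 733 ± 1080 CPM (SD, n = 10, or 466 CPM without the core of mouse 31), a log2 fold change of 5.57 (SE 1.21, edgeR adjusted p = 0.00669). Without Mac_Gpnmb cells Gpnmb did not pass the filter. The cores of mice 31, 36 and 37 held 1371 to 3143 CPM and the other 7 held 0 to 310 CPM. Sequencing batch and tissue could not be told apart, since the primary tumor of mouse 8 alone shared a batch with any core, those of mice 36 and 37 (1986 and 1371 CPM against its 0). The macrophage markers summed to 15054 to 16451 CPM in primary tumors and to 3859 to 10008 CPM in cores, and their part in the result was not tested.

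Spp1 was 249, 806, 313 and 707 CPM in the primary tumors of mice 8, 9, 10 and 38 and 659 to 7394 CPM in the cores (median 2750 CPM). Only the core of mouse 23 lay within the primary range. The means were 519 ± 279 CPM (SD, n = 4) and 2941 ± 1925 CPM (SD, n = 10), a log2 fold change of 2.49 (SE 0.53, edgeR adjusted p = 0.00627), and it was 2.42 (adjusted p = 0.0124) without Mac_Gpnmb cells. Trem2 was 114, 47.5, 106 and 19.1 CPM in the primary tumors and 0 to 910 CPM in the cores, with means of 71.6 ± 45.9 and 265 ± 267 CPM and a log2 fold change of 2.03 (adjusted p = 0.123). Cd9, at 179 ± 167 and 455 ± 228 CPM, had a log2 fold change of 1.52 (adjusted p = 0.0984) that passed on leaving out the primary tumor of mouse 8 (2.28, adjusted p = 0.0149). Cd63 was 554 ± 167 CPM in primary tumors and 539 ± 474 CPM in cores, a log2 fold change of -0.0069 (SE 0.46, edgeR adjusted p = 0.998) that was positive under 16 of 22 alternatives, so its sign is uncertain. Tyrobp (2519 ± 654 and 3204 ± 890 CPM), Fabp5 (305 ± 198 and 325 ± 230 CPM) and Lpl (60.8 ± 60.5 and 88.8 ± 89.4 CPM) were not called either. Of the wider list, 25 genes passed the filter, 2 were called higher in cores and 0 lower, namely Cd36, a scavenger receptor for lipids, at 6.90 ± 8.06 and 128 ± 72.6 CPM (3.80, adjusted p = 0.00290), and Il7r, the interleukin-7 receptor, at 18.0 ± 12.2 and 121 ± 83.2 CPM (2.68, adjusted p = 0.0186), and of the 4 signaling partners past the filter 0 were called by edgeR, with 1 at an unadjusted p under 0.05 and 1, Inpp5d, called by DESeq2.

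Spp1 UMIs were found in every lineage of the primary tumors, lymphocytes included. Mean levels there were 728 ± 354 CPM in B cells, 657 ± 290 CPM in neutrophils, 576 ± 210 CPM in monocytes, 519 ± 279 CPM in macrophages, 452 ± 98.0 CPM in NK cells, 394 ± 236 CPM in T cells and 283 ± 139 CPM in dendritic cells (SD, n = 4, or 2 for neutrophils and NK cells). The macrophages thus stood no higher than the B cells of the same tumors, and the tumor cells of mice 10 and 38 held 14430 CPM or more. In T cells of cores and metastases it was 60.7 ± 67.3 and 56.0 ± 74.9 CPM (SD, n = 13 each), and in T cells of margins 7.26 ± 14.3 CPM (SD, n = 6), where mouse 17 held 35.7 CPM, mouse 36 held 7.94 CPM and the other 4 held no Spp1 UMI. T cells of distal normal tissue, which was taken away from the lesions, averaged 50.1 ± 127 CPM (SD, n = 13), of which mouse 37 held 463 CPM, and 15.6 ± 30.2 CPM without that sample. T cells of control lungs held 16.1, 2.88 and 4.06 CPM in mice 1, 2 and 3, and those of relapse-free lungs averaged 13.9 ± 17.7 CPM (SD, n = 6, or 7.06 CPM without mouse 18). No Spp1 UMI was counted in T cells of Pre-MET lungs, which allows up to 10.3 CPM. Macrophages of cores (2941 CPM), metastases (2516 CPM) and margins (3085 CPM) were far above the T cells of their own tissue. Macrophages of control (648 ± 112 CPM, SD, n = 3) and relapse-free lungs (424 ± 281 CPM, SD, n = 4) held Spp1 in lungs without a lesion. How much of the Spp1 in other cells is free RNA was not tested.

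**Figure D5:**
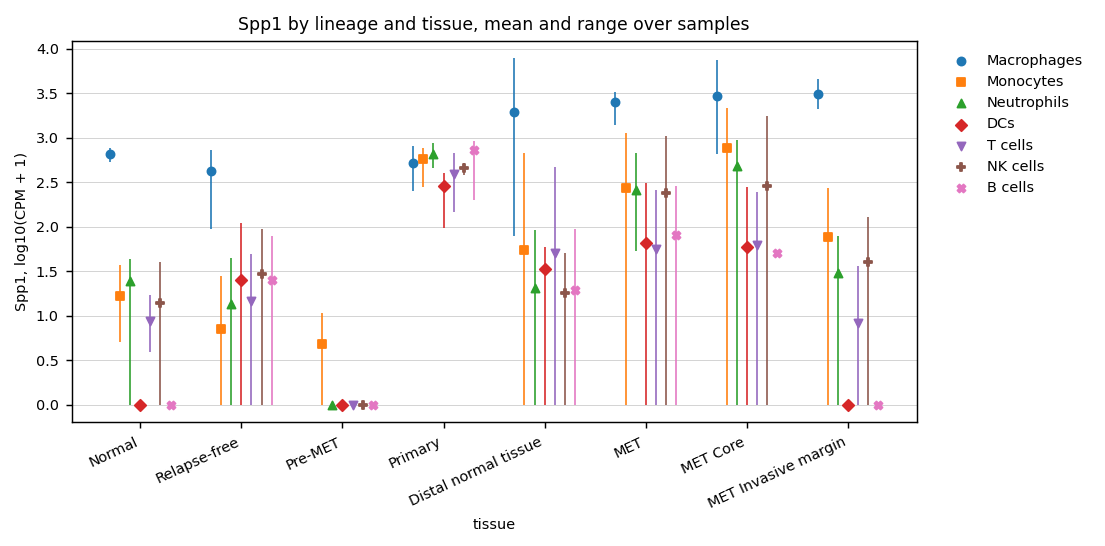
Mean Spp1 level (log10 of CPM + 1) by lineage and tissue, with lines from the lowest to the highest sample. All lineages of the primary tumor lie between 283 and 728 CPM, while in cores, metastases and margins macrophages lie at 2941, 2516 and 3085 CPM and T cells at 60.7, 56.0 and 7.26 CPM.

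Monocytes carried little of most members and were compared next. Between control and Pre-MET lungs (3 mice each), 3 of the 8 genes passed the filter and 1, Cd9, was called, beside 4.32% of 4953 genes tested. Cd9 was 329, 132 and 208 CPM in control mice 1, 2 and 3 and 7.32, 16.6 and 68.1 CPM in Pre-MET mice 8, 9 and 10. All control samples lay above all Pre-MET samples, and the log2 fold change was -2.81 (SE 0.57, edgeR adjusted p = 0.0101), which was -2.37 (adjusted p = 0.0710) without control mouse 1. The labels within monocytes also differed, with Mon_Ace at 59.0 ± 4.14% of monocytes in control and 22.6 ± 4.01% in Pre-MET lungs, and Mon_Fn1 at 23.8 ± 0.944% and 69.6 ± 5.65% (SD, n = 3 each). Within Mon_Ace, Cd9 was 271 to 519 CPM in controls and 20.2 to 132 CPM in Pre-MET lungs, which did not overlap, and within Mon_Fn1 it was 18.5 to 137 CPM and 0 to 57.5 CPM, which did. The 2 groups came from different sequencing batches, so that batch and condition cannot be told apart. Neutrophil markers in these monocyte sums were 275 to 665 CPM in controls and 1055 to 1993 CPM in Pre-MET lungs. The alveolar macrophage markers were 443 to 1004 and 1401 to 2661 CPM. That sum includes Chil3, which was nearly all of it in Mac_Gpnmb and Mac_Isg20, and its genes were not counted apart in monocytes. The part of these markers in the result was not tested. Trem2 was 59.8, 0 and 20.8 CPM in the controls and 68.4, 64.1 and 47.3 CPM in Pre-MET lungs, with overlapping groups, means of 26.8 ± 30.3 and 59.9 ± 11.2 CPM and an adjusted p of 0.472. Tyrobp was 5295, 5220 and 5107 CPM in the controls and 5066, 4301 and 4211 CPM in Pre-MET lungs, groups that did not overlap, and was not called (edgeR adjusted p = 0.415). With 3 mice in each group, ranges can lie apart by chance, and the share of all genes that did so was not counted. Lpl did not pass the filter, at 59.8, 32.9 and 13.9 CPM in the controls and 2.44, 2.38 and 9.46 CPM in Pre-MET lungs, but these values rest on 10, 8 and 2 UMIs and on 1, 1 and 5 UMIs, too few to order control mouse 3 and Pre-MET mouse 10. Spp1, Gpnmb, Cd63 and Fabp5 stayed at means of 15.6 CPM or less in both groups.

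Of the wider list, 23 genes passed the filter in these monocytes, 3 were called higher and 6 lower, beside 2.30% and 2.02% of all genes tested. Lgals1 and Lgals3, both galectins, rose from 329 ± 52.1 to 1371 ± 42.3 CPM (log2 fold change 2.01, edgeR adjusted p = 2.0e-05) and from 982 ± 224 to 2042 ± 187 CPM (1.01, adjusted p = 0.00457), and Anxa2, an annexin, rose as well. Apoe, a lipoprotein ligand, went from 3383 ± 621 to 602 ± 51.5 CPM (-2.53, adjusted p = 6.1e-07) and Cd36 from 365 ± 114 to 47.2 ± 8.53 CPM (-2.95, adjusted p = 8.4e-05), with Fabp4, Ctss, Ctsb and Itgax also lower. Of the 8 genes of the partner list, all past the filter, 1 was called, Treml4, a receptor of the same family and not itself a partner, from 260 ± 86.7 to 104 ± 18.3 CPM (-1.36, adjusted p = 0.0219).

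Spp1 of monocytes had a lower mean in the margin than in the core, and whether it was called depended on the samples, the filter and the block. In margins it was 86.4, 32.3, 0, 61.3, 0 and 272 CPM in mice 17, 26, 28, 31, 33 and 36, and in cores it ran from 0 over a median of 820 to 2172 CPM. The core of mouse 31 (199 CPM) and 4 cores without an Spp1 UMI lay within the range of the margins. The means were 772 ± 756 CPM (SD, n = 13) in cores and 75.4 ± 102 CPM (SD, n = 6) in margins, a log2 fold change of -3.05 for margin over core (SE 0.87, edgeR adjusted p = 0.209). Over the 5 mice with both tissues it was -3.05 without a block (edgeR adjusted p = 0.0476) and -3.31 with the mouse as a block (edgeR adjusted p = 5.47e-04), lower in the margin in 5 of 5. Over all mice without the filter it was -3.21 (edgeR adjusted p = 2.33e-06), and by DESeq2 over all mice it was not called. Monocytes of the regions differed in their labels, with Mon_Thbs1 at 43.7 ± 23.8% in cores (SD, n = 13) and 11.7 ± 12.1% in margins (SD, n = 6), and Mon_Fn1 at 32.6 ± 15.3% and 60.03 ± 25.9%. Spp1 averaged 1191 CPM in Mon_Thbs1 and 59.96 CPM in Mon_Fn1 over all tissues. Within Mon_Fn1 it was 196 ± 188 CPM in cores (SD, n = 7) and 57.7 ± 70.9 CPM in margins (SD, n = 5), with overlapping ranges, and Mon_Thbs1 had 1 sum in margins, so the part of the mix in the result was not tested. Spp1 and Tyrobp were the 2 members that passed the filter, and 0% of 1025 genes tested were called over all mice without the block (84 at an unadjusted p under 0.05). Tyrobp was 4205 ± 959 CPM in cores and 4135 ± 933 CPM in margins. Among the members that did not pass, Trem2 was 44.1 ± 49.7 and 87.6 ± 74.2 CPM, Cd9 was 156 ± 106 and 61.8 ± 30.4 CPM, and Gpnmb, Cd63, Fabp5 and Lpl had means of 51.0 CPM or less in both. Of the wider list 17 genes passed and of the signaling partners 2, and 0 were called by edgeR or DESeq2 (3 and 0 at an unadjusted p under 0.05).

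Between distal normal tissue (14 mice) and metastases (13 mice), Tyrobp alone passed the filter in monocytes and was not called (4478 ± 773 and 4194 ± 956 CPM), beside 1.48% of 2098 genes called. Spp1 averaged 53.6 ± 178 CPM in distal normal tissue and 273 ± 298 CPM in metastases and was higher in metastasis in 9 of 13 mice. The distal mean rests on mouse 33, at 672 CPM from 11 UMIs in 22 cells, and the other 13 distal samples held 0 to 18.2 CPM (6.09 ± 7.38 CPM, SD). Spp1 was called only without the filter (log2 fold change 4.08, edgeR adjusted p = 8.65e-18, and 5.00, adjusted p = 3.85e-32, also without that sample). Such small p-values do not measure the spread between mice. The SDs exceeded the means, and the metastases of mice 24, 27 and 34 held no Spp1 UMI. Cd9, at 52.1 ± 46.6 and 125 ± 85.1 CPM, was likewise called only without the filter (1.30, edgeR adjusted p = 0.0181). Mon_Thbs1, the monocyte label of highest Spp1, made up 5.28 ± 4.77% of monocytes in distal normal tissue (SD, n = 14) and 25.5 ± 18.8% in metastases (SD, n = 13), and within Mon_Fn1 Spp1 was 6.54 ± 8.38 and 24.9 ± 32.2 CPM (SD, n = 13 each). Cd68, a lysosomal glycoprotein of the wider list, was called higher at 382 ± 93.2 and 600 ± 226 CPM (0.69, adjusted p = 0.0446), as 1 of 18 list genes past the filter. Of 7 signaling partners past the filter, 0 were called by edgeR or DESeq2 and 0 had an unadjusted p under 0.05. Trem2 was 56.2 ± 36.9 CPM in distal normal tissue and 47.4 ± 28.7 CPM in metastases, and Gpnmb, Cd63, Fabp5 and Lpl had means of 40.0 CPM or less in both. In neutrophils of the same tissues (9 mice each), Tyrobp and Cd9 passed the filter and neither was called (0% of 715 genes, 26 at an unadjusted p under 0.05). Spp1 of neutrophils, at 19.6 ± 32.4 and 260 ± 242 CPM, was higher in metastasis in 6 of 6 mice and called only without the filter (2.82, edgeR adjusted p = 0.00199). In mouse 30 this rests on 1 UMI in metastasis against 0 in distal normal tissue, too few to order them. Without the highest distal sample, mouse 36 at 92.2 CPM, the distal mean was 10.6 CPM and the unfiltered log2 fold change 3.22 (edgeR adjusted p = 6.43e-04). PMN-MDSCs, the neutrophil label of highest Spp1, were 0.111 ± 0.333% of neutrophils in distal normal tissue and 3.36 ± 3.47% in metastases (SD, n = 9 each), and the part of the mix was not tested. Tyrobp was 5880 ± 1770 and 5461 ± 1729 CPM, Cd9 453 ± 202 and 453 ± 194 CPM, Cd63 85.6 ± 41.4 and 121 ± 57.9 CPM and Fabp5 48.1 ± 50.8 and 65.3 ± 73.5 CPM (42.5 CPM without metastasis mouse 25), while Trem2, Gpnmb and Lpl had means of 8.79 CPM or less. Of 9 wider list genes and 5 signaling partners past the filter, 0 were called by edgeR or DESeq2 (2 and 0 at an unadjusted p under 0.05).

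Within single labels, where the mix of labels is held constant, no member was called in any of the 4 comparisons run. In Mac_Gpnmb, margin (4 mice) against core (3 mice), Trem2 was 587 ± 169 and 784 ± 335 CPM, a log2 fold change of -0.40 (SE 0.49, edgeR adjusted p = 0.997) whose sign turned with sums of at least 5 cells (0.20) or without the core of mouse 31 (0.036), and Gpnmb was 2745 ± 1155 and 2990 ± 2427 CPM. Tyrobp (3054 and 2350 CPM), Cd63 (1919 and 1460 CPM), Spp1 (2594 and 3747 CPM), Fabp5 (692 and 902 CPM), Lpl (342 and 145 CPM) and Cd9 (1054 and 683 CPM) also passed the filter. The core means fell to 907 CPM for Cd63 and 22.1 CPM for Lpl without mouse 31 and to 1793 CPM for Spp1 without mouse 30, which puts Spp1 below the margins, and the margin mean of Lpl was 127 CPM without mouse 32. No gene was called there (0% of 1026 tested, 19 at an unadjusted p under 0.05). In Mac_Isg20, core (7 mice) against metastasis (8 mice), Spp1 was 3954 ± 2663 and 4104 ± 1541 CPM and Trem2 167 ± 136 and 201 ± 107 CPM (0% of 734 genes, 14 at an unadjusted p under 0.05). Tyrobp (3071 and 2430 CPM), Cd63 (297 and 432 CPM), Fabp5 (252 and 350 CPM) and Cd9 (462 and 530 CPM) passed the filter too, while Gpnmb (88.3 and 305 CPM) and Lpl (102 CPM, or 59.5 CPM without the core of mouse 36, and 60.6 CPM) did not. In Mon_Fn1, metastasis against distal normal tissue (13 mice each), Trem2 was 70.4 ± 58.2 and 63.1 ± 43.8 CPM, with 1 member, Tyrobp (4497 and 4559 CPM), past the filter (0% of 1292 genes, 17 at an unadjusted p under 0.05), and Gpnmb, Cd63, Spp1, Fabp5, Lpl and Cd9 had means of 30.1 CPM or less. Of the wider list, 26, 20 and 17 genes passed the filter in these 3 comparisons and of the signaling partners 0, 0 and 3, and 0 were called by edgeR or DESeq2, with 0 at an unadjusted p under 0.05.

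In Mon_Thbs1, core (8 mice) against primary tumor (4 mice), Spp1 came closest to the threshold. It was 2143 ± 1351 CPM in cores and 593 ± 424 CPM in primary tumors, with a range of 591 to 4519 CPM against 266 to 1169 CPM that overlapped. Its log2 fold change was 1.79 (SE 0.49, edgeR adjusted p = 0.0615, DESeq2 adjusted p = 0.0264), beside 1.24% of 2345 genes called (0.682% higher and 0.554% lower). Only the primary tumor of mouse 8 (1169 CPM) and the core of mouse 36 (1968 CPM) shared a sequencing batch. Batch and tissue therefore cannot be told apart. Fabp5 of the same label was 54.3 ± 44.8 and 198 ± 65.2 CPM (adjusted p = 0.107). Tyrobp (4145 and 3465 CPM) and Cd9 (262 ± 144 and 146 ± 99.9 CPM) were not called, and Trem2 (30.8 and 29.6 CPM), Gpnmb, Cd63 and Lpl, with means of 72.5 CPM or less, did not pass the filter. Of 20 wider list genes and 7 signaling partners past the filter, 0 were called by edgeR or DESeq2 (6 and 1 at an unadjusted p under 0.05).

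Beyond the members, 29 of the 30 genes of the wider list reached a mean of 50 CPM in a macrophage label, and 16 of them (55.2%) were highest in Mac_Gpnmb among the 4 labels, as against 15.0% of the 4820 genes of that level. Of the members, 4 of 8 were. None of the 7 TREM2 signaling partners at that level was highest in Mac_Gpnmb, with 3 highest in Mac_Cd81 and 4 in Mac_Cd9. Both lists were drawn up with earlier results of these data known.

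Across the 29 labels, the gene whose log2 mean level ran most like Trem2 among 9973 genes was Tnfsfm13 (Pearson r = 0.850), followed by Ctsa (0.818), Tfec (0.815), Tmem86a (0.804) and Fn1 (0.795). Tyrobp ran most like Fcer1g (0.971), which encodes another adaptor with an activation motif, and then like Fcgr3 and Itgam. Gpnmb ran most like Gdf15 (0.869), Lpl like F7 (0.853) and Spp1 like Hspa5 (0.808). Among the members themselves, the highest correlation was that of Gpnmb and Lpl (0.736), Trem2 and Gpnmb reached 0.560, Trem2 and its adaptor Tyrobp 0.386, and Tyrobp and Spp1 0.005. The labels share plates, mice and depth, and these correlations are descriptive.

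Cd63, Fabp5 and Cd9 ran most like near-identical copies of themselves, which matters for their levels. The pseudogene Cd63-ps held 6502 UMIs beside 5847 of Cd63 (52.7% of the pair), 5 copies of Fabp5 held 5849 UMIs beside 3752 (60.9%), and Cd9-ps held 933 beside 12999 (6.70%), so the levels of Cd63 and Fabp5 above are uncertain. With the UMIs of the copies added, Mac_Gpnmb was again the highest label of Cd63 (3089 CPM) and of Fabp5 (2053 CPM) and Mac_Cd9 that of Cd9. No copy was found for Trem2, Tyrobp, Gpnmb, Spp1 or Lpl.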

How the data were processed

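Cells on 148 plates of 384 wells were read as 3' libraries by SPID-seq. The deposited values are counts of UMIs per gene and well: per the study's methods the authors mapped reads to mm10 with HISAT 0.1.6, excluded reads with several positions, collapsed UMIs and discarded cells of fewer than 500 UMIs, and the submitters' processing notes name bcl2fastq 2.15.0.4. Cells, mice, tissues and annotation labels came from the deposited metadata. Pseudogene copies were found with BLAST 2.17.0.

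UMIs were summed per mouse, tissue and label or lineage (at least 10 cells). Tissues were compared with edgeR 4.0.16 (R 4.3.3), by its quasi-likelihood test with TMM, filterByExpr and Benjamini-Hochberg adjustment over all genes tested, two-sided, without a block. A call is an adjusted p under 0.05. The mice are separate animals, and p-values of fits with the filter measure the spread between samples. In several comparisons some mice gave both tissues, and fits without a block treated these as separate samples. P-values of edgeR fits without the filter should not be read as a measure of that spread. DESeq2 1.42.0, other filters, scalings and cell minima, the mouse as a block, batch, and leaving out samples were alternatives. Where a sum held cells of several sequencing batches, it was assigned to the batch with the largest number of its cells. The scripts were tested on simulated data.

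Same-numbered samples came from the same mouse and were paired by design, and their deviations from the group means correlated at 0.0537 to 0.250 in macrophages of metastases and distal normal tissue (5 mice), and at 0.0549 to 0.650 in monocytes of cores and margins (5 mice). All 8 members were named in every comparison. Of the 2 further lists, counts were given for every comparison and the 3 genes with the smallest p in each direction were named, with the other called genes listed after their values were seen. The genes most like a member were those of highest Pearson correlation across labels, at 50 CPM or more in at least 1 label and after adding 1 CPM. The members and lists were chosen with earlier results of these data known. Immune UMIs per sample ranged from 48306 to 2745794. Intervals and zero limits (3 counts of the total) cover counting error only.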

Additional observations from a re-analysis of the deposited data

Results flagged for a closer look

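Of 80 groups of 4 to 10 samples examined, 6 held a sample whose gap to its nearest neighbour was large for the group's range. The limit used flags about 1 in 20 groups of independent, normally distributed values. These levels need not be so distributed and the groups share samples, so the count cannot be read against that rate. In Mac_Isg20 of metastases (8 sums), Cd9 of mouse 37 was lowest at 72.3 CPM (nearest 439 CPM) and Fabp5 of mouse 31 highest at 1011 CPM (nearest 452 CPM). In Mac_Isg20 of cores (7 sums), Lpl of mouse 36 was highest at 354 CPM (nearest 94.8 CPM). In macrophages of cores (10 sums), Cd63 of mouse 31 was highest at 1799 CPM (nearest 786 CPM). In macrophages of distal normal tissue (6 sums), Spp1 of mouse 17 was highest at 7852 CPM (nearest 2716 CPM), in a sum of 10 cells. In Mon_Thbs1 of cores (8 sums), Cd63 of mouse 24 was highest at 127 CPM (nearest 58.5 CPM), from 3 UMIs.

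Wells without a cell, which no comparison used, held more UMIs than a count of 0 allows for 3 members, with 27 UMIs of Tyrobp, 7 of Cd9 and 5 of Spp1 among 8490.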

How the results depend on the processing

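Over all members that passed the filter, 69 of 801 values recomputed under alternatives turned sign, 17 of them Cd63 values (16 in core against primary tumor) and 12 Trem2 values, and in none of the 69 was either value called; the causes were not tested. For members called under any setting, and Trem2 in macrophages and Mac_Gpnmb, 244 values kept direction and side of the threshold, 21 became calls, 14 ceased to be calls and 10, all of Trem2, turned sign. In macrophages of metastasis against distal normal tissue, the log2 fold change of Trem2 was 0.57 without the filter, 0.61 with the mouse as a block, 0.56 over the same mice without it, 1.94 in cells of at least 1000 UMIs, and 0.82 and 0.0014 without distal mice 17 and 23 (-0.26 to 0.82 on leaving out any sample). For margin against core it was -0.12 over mice with both tissues and -0.030 with batch as a term, and within Mac_Gpnmb 0.20 with sums of at least 5 cells and 0.036 without the core of mouse 31 (-0.58 to 0.036). Members called in macrophages of metastasis against distal normal tissue were 4 with the block, over only the 5 mice with both tissues, against 2 over all mice. They were 1 to 3 on leaving out a sample. Margin against core gave 1 by DESeq2 against 0, and core against primary tumor 1 without Mac_Gpnmb cells against 2 (2 to 3 on leaving out a sample). In monocytes, Pre-MET against control gave 0 to 1 on leaving out a sample, metastasis against distal normal tissue 2 without the filter against 0, and margin against core 1 without the filter, with the block and over mice with both tissues, against 0. Neutrophils gave 1 without the filter, and Mon_Thbs1 gave 1 by DESeq2, 1 with at least 20 cells, and 0 to 1 on leaving out a sample. A Trem2 UMI was in 47.2% of Mac_Gpnmb cells as counted and 21.98% thinned. The block changed no call other than those given. Of all genes, metastasis against distal normal tissue in macrophages called 123, and 256 by DESeq2, 461 without the filter, 59 in cells of at least 1000 UMIs, and 191 and 71 without distal mice 17 and 30. Margin against core called 0, and 39, 17 without the filter, 3 with at least 5 cells and 1 without margin 17. Core against primary tumor called 98, and 196, 258, 62 in cells of at least 1000 UMIs, and 45, 48 and 54 without primary mice 10, 38 and 9. In monocytes, Pre-MET called 214, and 387, 127 in cells of at least 1000 UMIs and 87 to 138 on leaving out a sample; metastasis 31, and 80, 322, 79 with the block, 15 in cells of at least 1000 UMIs and 77 with batch; and margin 0, and 5, 2 by RLE, 91, 58 with the block, 5 over the same mice, 3 with at least 5 cells, 2 with at least 20, 2 in deeper cells and 4 with batch. Neutrophils called 5 and Mac_Isg20 1 without the filter against 0, and Mac_Isg20 1 with batch. Mon_Thbs1 called 29, and 80, 51, 19 and 71 with at least 5 and 20 cells, 14 in deeper cells, and 0, 1 and 16 without primary mice 10, 38 and 9. Adding copies, leaving out samples in groups of more than 5, and leaving out the distal sample of highest Spp1 together with the filter (2 members called in monocytes, 1 in neutrophils) were chosen after seeing the data. Not run for lack of samples were sums of 20 cells for macrophages of distal normal tissue and for Mac_Gpnmb, margin against core without Mac_Gpnmb cells, batch and block for primary tumors, and the block for Pre-MET and Mac_Gpnmb.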
